A study of Mus musculus with 2 samples.

Results

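Spi1, Spib and Spic are the 3 mouse genes for the PU.1 group of ETS transcription factors, and they are described here by the open chromatin around them in common myeloid progenitors. Open regions came from ATAC-seq, in which the Tn5 transposase cuts accessible DNA, and were taken from the conservative list of peaks that passed an irreproducible discovery rate (IDR) threshold over both replicates. Overlapping peaks on chromosomes 1 to 19 were merged, which gave 65789 regions. Every region within 50 kb of an annotated start of Spi1, Spib or Spic was kept, and 30 of the 65789 qualified: 12 at Spi1, 10 at Spib and 8 at Spic. A region whose edge lay within 1 kb of a start of the gene is called its promoter region here. The study held 1 group with 2 libraries, biological replicates 1 and 2, each of 50000 common myeloid progenitor primary cells of male adult C57BL/6J mice 5 to 6 weeks old. No treatment, mutation or second cell type was in the samples, so no contrast between conditions was possible. Both libraries carry the same donor label, and the labels do not name the markers used to sort the cells.

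Common myeloid progenitors are bone marrow cells that give rise to granulocytes, macrophages, megakaryocytes and red cells. Spi1 encodes PU.1, which binds purine-rich DNA around a GGAA core and is needed for macrophages, granulocytes and B cells; its dose influences which of these lineages a progenitor enters. Spib encodes Spi-B, known from B cells and plasmacytoid dendritic cells, and Spic encodes Spi-C, which is needed for the red pulp macrophages that recycle iron in the spleen. All have a similar ETS domain that contacts DNA and bind overlapping sets of sites. Mouse Spi1 is controlled by an upstream regulatory element about −14 kb from its promoter, where RUNX1 and PU.1 itself bind, and by a myeloid enhancer at about −12 kb.

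The sequences on which the results turn are given on the mm10 (GRCm38) assembly, 5′ to 3′ on the strand of the named gene, with the summit of the region (its highest point in the deposited list) inside the stretch. Capitals mark matches to the motifs given below, searched on both strands. The first is the strongest region at an Spi1 start, 100 bases each side of the summit at chr2:91082964-91083164, and its capitals mark matches to C/EBP and to the short RUNX and ETS cores, of which 1 pair overlaps.
Spi1 −13.0 kb: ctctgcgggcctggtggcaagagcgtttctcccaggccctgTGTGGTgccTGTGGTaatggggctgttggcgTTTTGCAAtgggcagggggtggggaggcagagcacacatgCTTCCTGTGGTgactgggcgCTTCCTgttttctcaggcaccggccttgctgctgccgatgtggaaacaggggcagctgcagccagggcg
The second is the promoter region of Spic, with the 158 bases just upstream of the main Spic start at chr10:88683024-88683181, and its capitals mark the ETS core.
Spic −0.1 kb: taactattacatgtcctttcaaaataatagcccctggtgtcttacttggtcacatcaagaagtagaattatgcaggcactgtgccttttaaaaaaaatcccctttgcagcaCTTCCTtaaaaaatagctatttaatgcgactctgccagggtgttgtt
The next 2 are the regions over the last coding exons of Spi1 and Spib, the exons that encode the ETS domain, at chr2:91115134-91115334 and chr7:44528067-44528267; the only capitals mark a RUNX core.
Spi1 +19.1 kb: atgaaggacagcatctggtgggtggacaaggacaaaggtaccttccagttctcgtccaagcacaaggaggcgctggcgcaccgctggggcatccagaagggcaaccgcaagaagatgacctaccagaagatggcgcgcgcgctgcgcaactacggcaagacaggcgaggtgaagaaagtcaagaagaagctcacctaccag
Spib +3.9 kb: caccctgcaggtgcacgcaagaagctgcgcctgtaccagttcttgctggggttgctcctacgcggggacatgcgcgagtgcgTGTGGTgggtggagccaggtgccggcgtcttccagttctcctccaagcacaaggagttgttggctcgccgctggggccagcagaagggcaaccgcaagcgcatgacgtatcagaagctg
The last are a region of Nr1h2 near Spib at chr7:44553952-44554083, shown for its run of ETS matches, and a distal region of Spic at chr10:88708808-88709008, shown for its AP-1 and C/EBP matches.
Spib −21.9 kb: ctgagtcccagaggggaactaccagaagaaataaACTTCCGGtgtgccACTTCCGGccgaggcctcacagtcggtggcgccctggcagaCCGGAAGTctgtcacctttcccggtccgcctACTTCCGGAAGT
Spic −25.9 kb: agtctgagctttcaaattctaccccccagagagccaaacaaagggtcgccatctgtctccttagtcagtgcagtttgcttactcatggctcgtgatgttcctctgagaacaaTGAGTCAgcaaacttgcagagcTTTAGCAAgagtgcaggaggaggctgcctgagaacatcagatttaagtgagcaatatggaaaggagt

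The 3 genes differed in their promoters. Spi1 had 3 promoter regions, Spic had 1 and Spib had none. Among the 20807 protein-coding genes of chromosomes 1 to 19 in GENCODE M21, 13221 had at least 1 promoter region, which is 63.5%, so the presence of one at Spi1 and Spic is the common state and its absence at Spib is not rare. At least 3 such regions were found at 4.79% of genes. Spi1 has 4 annotated starts, Spib has 3 and Spic has 2, against a median of 3 starts over all genes, and more starts give more places for a region to qualify. In the replicates' own IDR-thresholded lists, where 59.0% of genes had a promoter region in replicate 1 and 54.5% in replicate 2, Spi1 kept 2 promoter regions in each list and neither Spib nor Spic had any. Within 50 kb, counting all regions, Spi1 had 12, Spib 10 and Spic 8, against a median of 6 over all genes, with quartiles of 3 and 9. This order depended on the list: Spib came first with 11 in the IDR-thresholded list of the series, against 10 at Spi1 and 9 at Spic, and with 10 in each replicate's own IDR-thresholded list, where Spi1 had 6 and 5 and Spic 5 and 4 in replicates 1 and 2. More regions than at Spi1 were found at 9.83% of genes, more than at Spib at 18.1% and more than at Spic at 30.4%. With 1 count per gene, no test of the difference between these counts was possible.

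**Figure D1:**
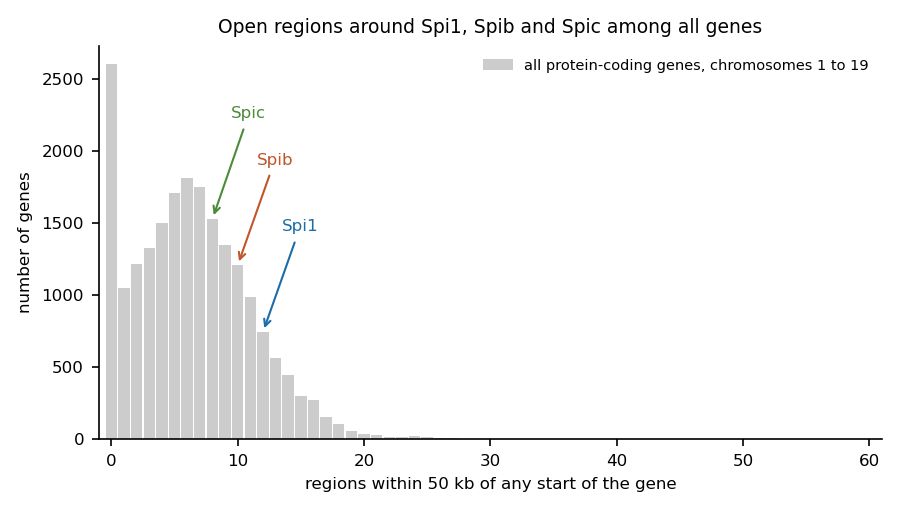
Number of protein-coding genes (vertical axis) by the number of regions within 50 kb of any of their starts (horizontal axis), with arrows at Spi1, Spib and Spic. All 3 genes, at 12, 10 and 8 regions, stand above the median of 6.

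Spi1 (ENSMUSG00000002111.8) lies on the forward strand of chromosome 2, and its 4 starts fall into 2 pairs. The upstream pair is at 91082390 and 91082408, and the downstream pair is at 91096096 and 91096780. Positions are given below from the main start of each gene, which is that of the first transcript in the annotation's numbering, in the direction of transcription; at Spi1 it is 91096096. The strongest of its promoter regions, at −13.0 kb (chr2:91082852-91083643), lay in an intron of Spi1 444 bp downstream of the start at 91082408. Its signal, the deposited peak height whose scale is not stated, was 8.20 in the list of both replicates, 8.0 in replicate 1 and 7.54 in replicate 2. That was the 48.5th percentile of all regions in the list of both replicates, the 39.6th in the IDR-thresholded list of replicate 1 and the 21st in that of replicate 2. These lists differ in length, with 65789, 46420 and 36740 regions. In the longer ranked lists of replicates 1 and 2 the region was at percentiles 68.6 and 59.1. It was found in every list used, and its place relative to the median moved with the list.

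The region at −13.0 kb was the closest strong one to the known upstream element. Its edge was 756 bp from the −14 kb position and 453 bp from the −12 kb position, counted from the main start, so these 2 elements cannot be told apart by distance from that start alone. Counted from the start at 91096780, its summit was at −13.72 kb. A weaker region at −14.8 kb (chr2:91081149-91081413), 977 bp from the start at 91082390, had a signal of 3.47, at percentile 1.02, and values of 3.63 and 3.60 in the full ranked lists of replicates 1 and 2. It passed the IDR threshold in neither replicate's own list. It was also the region just inside the 1 kb limit; the nearest region outside was at +2.3 kb, 1466 bp from the start at 91096780.

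The third promoter region, at +0.6 kb (chr2:91096441-91097324), covered the start at 91096780, with its summit in the untranslated part of exon 1 of the main transcript. Its edge was 345 bp downstream of the main start. Its signal was 7.84, at the 43.9th percentile, with 7.50 in replicate 1 and 7.32 in replicate 2. The region at −13.0 kb thus had the higher value in all 3 lists.

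Within the gene, 4 further regions were found, all below the median signal of 8.35 of the whole list. The intronic region at +5.5 kb had a signal of 7.07, passed the threshold in replicate 1 with 6.92 and was in the ranked list alone in replicate 2 with 6.72. The intronic regions at +2.3 kb and +12.2 kb had 4.19 and 5.85, and the one at +12.2 kb was absent from the ranked list of replicate 2. The region at +19.1 kb (chr2:91115050-91115370) lay over the last coding exon, with 7.15 in both replicates together, 5.97 in replicate 1 and 5.85 in replicate 2. A region at +40.7 kb between genes had 4.97. None of these 5 was in both replicates' IDR-thresholded lists.

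The strongest regions near Spi1 belonged to its upstream neighbours. The promoter of Rapsn, which encodes the rapsyn protein of the neuromuscular junction, lay at −53.2 kb with a signal of 17.6, at the 98.6th percentile. That of Psmc3, a proteasome ATPase, was at −42.1 kb with 16.3, and it was shared with Gm13778. Slc39a13, a zinc transporter, had promoter regions at −25.6 kb with 11.9 and at −30.4 kb with 4.20. Rapsn had 14.8 in replicate 1 and 17.7 in replicate 2, and Psmc3 had 14.0 and 17.4 in the same order. The Spi1 promoter regions ranged from 3.47 to 8.20, below 3 of the 4 neighbour regions.

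**Figure D2:**
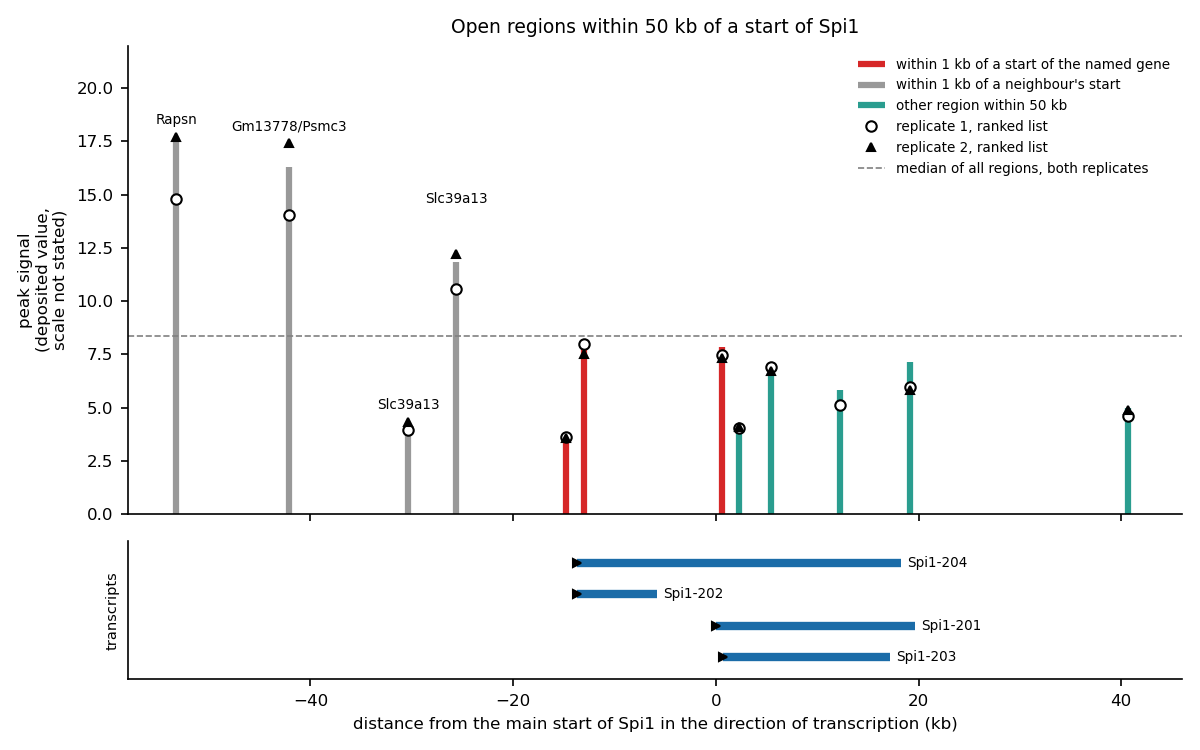
Deposited peak signal (vertical axis, scale not stated) of the 12 regions within 50 kb of a start of Spi1 against their distance from the main Spi1 start in kb, with transcripts below. Bars are the list of both replicates, circles replicate 1 and triangles replicate 2; the Rapsn and Psmc3 promoters stand highest and all Spi1 promoter regions lie under the dashed median of 8.35.

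Spib (ENSMUSG00000008193.13) lies on the reverse strand of chromosome 7, with starts at 44532071, 44532053 and 44531276. No region came within 1 kb of any of them in the conservative list or in any other list used, the most lenient list of 217607 regions included. A pair of regions flanked the gene. The one at −2.4 kb (chr7:44534122-44534718), 2051 bp from the nearest Spib start, had its summit in an exon of Pold1, the catalytic subunit of DNA polymerase delta, and lay within 1 kb of a Pold1 start. Its signal was 8.60, at the 52.8th percentile. The one at +3.9 kb (chr7:44527534-44528429), 2847 bp from the nearest start, covered the last coding exon of Spib with a signal of 9.07, at the 57.8th percentile.

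These flanking regions were the 2 with the largest excess in replicate 2 among the 28 with a value in both replicates. The region at −2.4 kb had 7.11 in replicate 1 and 9.79 in replicate 2, a log2 difference (replicate 2 over 1) of 0.46. The region at +3.9 kb had 6.76 in replicate 1 and 10.2 in replicate 2, a difference of 0.59. Over the 61898 regions with a value in both ranked lists the middle 95% of these differences ran from −0.42 to 0.44, so both Spib values lay above it. Both regions nevertheless passed the threshold in each replicate.

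The other regions near Spib were mostly promoters of other genes. Those of Napsa, an aspartic protease, at −40.5 kb, of Pold1 at −16.8 kb, of Nr1h2, the oxysterol receptor LXR beta, at −21.9 kb, of Emc10 with Fam71e1 at +35.5 kb, of Gm44646 at +30.2 kb and of 5430431A17Rik at +46.8 kb had signals from 7.25 to 13.1. The highest was the Emc10 and Fam71e1 region and the lowest that of Nr1h2. That of Gm44646 was the only 1 of the 10 missing from a replicate's IDR-thresholded list, that of replicate 2. Only 3 regions of the 10 were no promoter of a neighbour: the one over the last exon, one between genes at −29.1 kb with 11.8, and one in an intron of Mybpc2, a muscle myosin-binding protein, at +10.1 kb with 10.2. All 3 were found in both replicates' own lists. The region at −29.1 kb, at the 80.8th percentile, was the strongest of the 30 that lay at no annotated start.

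Spic (ENSMUSG00000004359.16) lies on the reverse strand of chromosome 10, with starts at 88683023 and 88685015. Its promoter region (chr10:88682738-88683347) covered the first of these, with a signal of 7.61 at percentile 41.1. The ranked lists gave it 7.30 in replicate 1 and 6.33 in replicate 2, and it passed the IDR threshold in neither replicate's own list. The start at 88685015 was 1668 bp from the nearest region.

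Distal regions of Spic lay between genes. Those at −44.3, −42.5, −29.5, −25.9 and +37.3 kb had signals of 3.71, 7.59, 5.61, 7.68 and 8.72, and none of the 5 was in both replicates' IDR-thresholded lists. The ones at −29.5, −25.9 and +37.3 kb passed in replicate 1, that at −42.5 kb in replicate 2, and that at −44.3 kb was absent from the ranked list of replicate 2. The remaining regions, at −48.3 and −48.0 kb, with 8.40 and 10.4, lay at the starts of Arl1, a small GTPase of the Golgi, and of Gm4925. They were 1 region in replicate 1, with 9.45, and 2 in replicate 2, with 6.97 and 10.5.

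**Figure D3:**
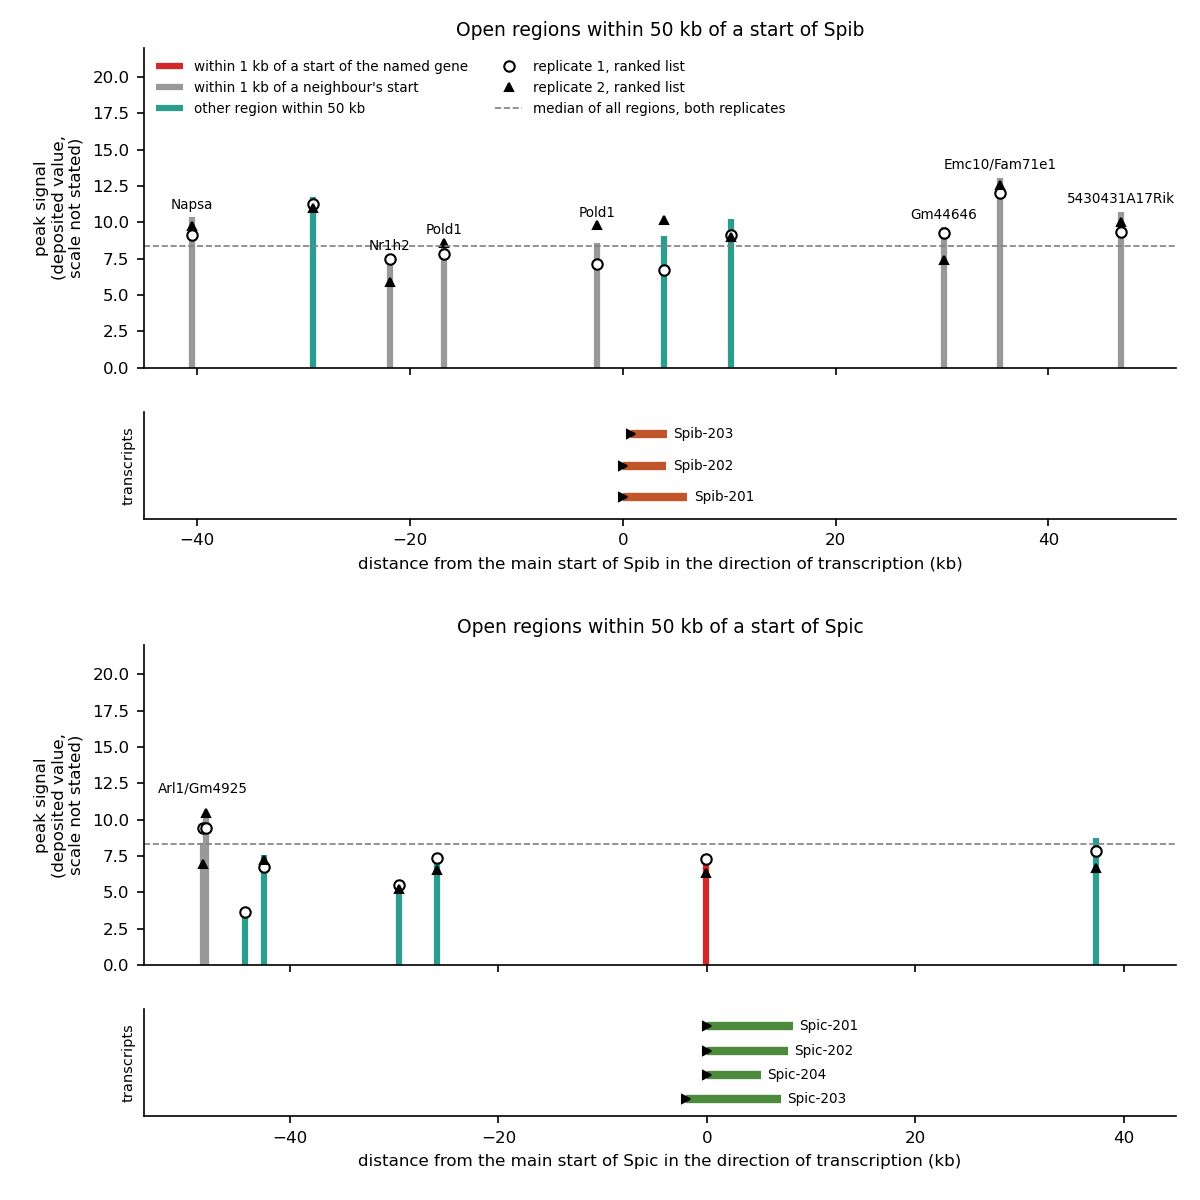
Deposited peak signal (vertical axis, scale not stated) of the 10 regions around Spib (top) and the 8 around Spic (bottom) against distance from the main start of the gene in kb, with bars, circles and triangles for both replicates, replicate 1 and replicate 2. No bar stands within 1 kb of an Spib start, and the Spic promoter bar is at 7.61; both Arl1 regions share 1 replicate 1 value.

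Spi1 and Spib each had an open region over the exon that encodes the ETS domain, and Spic had none. The coding part of the last exon is 317 bp in Spi1 (exon 5), 296 bp in Spib (exon 6) and 404 bp in Spic (exon 6), and regions of the conservative list covered 296 bp, 296 bp and 0 bp of them. The Spib exon was covered in all lists used, while the Spi1 exon was missing from the IDR-thresholded list of the series and from both replicates' IDR-thresholded lists. The Spic exon was covered in no list. GC content of these coding parts was 62.1% in Spi1, 62.2% in Spib and 47.5% in Spic. At the best ungapped alignment, the Spi1 and Spib parts were identical at 207 of 296 bases (69.9%), with a longest shared run of 18 bases. The Spi1 and Spic parts were identical at 186 of 314 bases (59.2%), with a run of 16. For Spib and Spic it was 164 of 293 bases (56%), with a run of 11. The share of all genes with a region over the last coding exon was not computed, so the coverage is not set against a background. Whether likeness of the exons or GC content bears on these regions was not tested.

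Each region was looked for in the replicates' own lists. Of the 30 regions, 16 (53.3%, exact binomial 95% interval 34.3 to 71.7%) were in both replicates' own IDR-thresholded lists, against 50.6% of all conservative regions, so as a set they were near the background. By gene this was 5 of 12 at Spi1, 9 of 10 at Spib and 2 of 8 at Spic. In neither list were 8 regions, 6 at Spi1 and 2 at Spic, against a background of 27.8%. The difference between the genes was not tested. By kind it was 2 of 4 promoter regions of the 3 genes, 11 of 13 promoters of neighbours and 3 of 13 others, the 3 being at Spib. These kinds differed in signal, with median percentiles of 42.5, 70.1 and 35.0 in the same order. The share by kind over all regions was not computed, so the split is not set against a background. In the full ranked lists 28 of 30 (93.3%) were found in both replicates, against 94.1% of all conservative regions. Intervals cover counting error only, and regions around 1 gene are not independent.

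The replicates' signals differed little at most of the 28 regions with a value in both. The log2 difference between replicate 2 and replicate 1 ran from −0.09 to 0.31 over 11 Spi1 regions, from −0.34 to 0.59 over 10 Spib regions and from −0.44 to 0.15 over 7 Spic regions. Over all 61898 regions its median was 0.04 and its SD 0.22. The Arl1 region at −48.3 kb, at −0.44, was the only one of the 28 below the middle 95%; its replicate 1 value is shared with the region next to it.

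**Figure D4:**
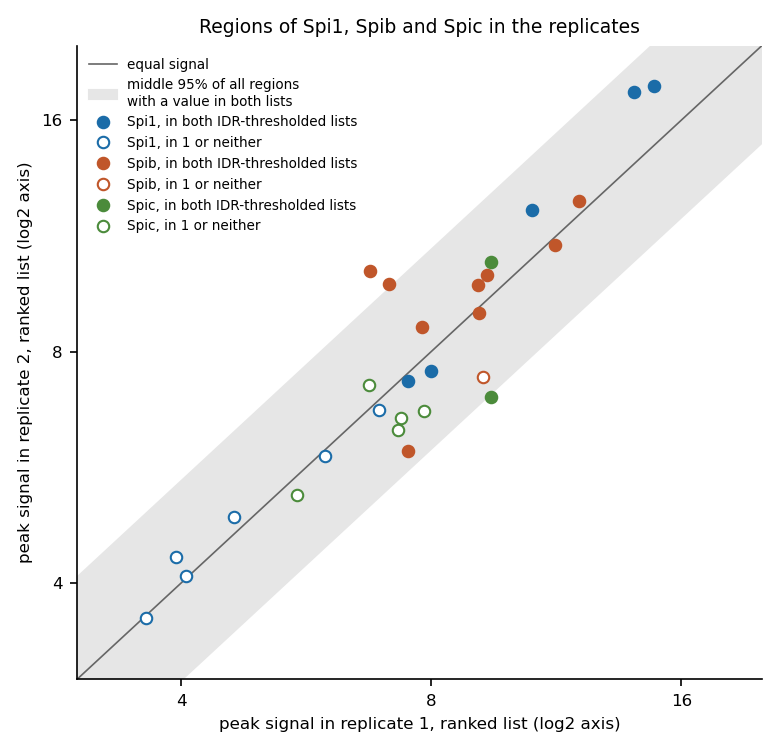
Peak signal in replicate 2 against replicate 1 (both axes log2) for the 28 regions with a value in both ranked lists; filled points were in both IDR-thresholded lists and the grey band is the middle 95% of all regions. The 2 Spib regions beside the gene lie above the band, and the rest lie in it apart from 1 Spic region at its lower edge.

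Sequence around the summits was searched for 9 short motifs on both strands within 50 bp of the summit. The PU.1 motif was GAGGAAGT, the general ETS motif CCGGAAGT, the ETS-IRF composite GGAANNGAA, RUNX TGTGGTT, C/EBP TTGCNNAA, GATA factors AGATAAG, AP-1 TGANTCA, SP/KLF GGGCGGG and CTCF AGGGGGC. None of the 30 regions held the PU.1 motif, against 5.99% of all regions, a share at which few matches among 30 would occur. C/EBP matches were found at 4 of 30 regions (5.13% of all regions), SP/KLF at 3 (7.35%) and RUNX at 2 (7.29%). GATA (3.11%), AP-1 (4.93%) and ETS (1.16%) were found at 1 each, and CTCF (6.43%) and ETS-IRF (4.16%) at none. The shares over all regions differed between the 19778 regions at annotated starts and the 46011 away from them. In that order they were 18.6% and 2.5% for SP/KLF, 3.53% and 5.81% for C/EBP, 3.53% and 8.9% for RUNX and 3.47% and 7.07% for PU.1. Of the 30 regions, 4 were promoter regions of the 3 genes and 13 those of neighbours, and all 3 SP/KLF matches were at neighbours. No match to any of the 9 was found at 20 of the 30, and at 61.2% of all regions. A match is only a run of letters and not evidence of binding. Only exact letters were counted, so the lack of a match, for CTCF or any other motif, does not show that a site is absent.

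Of the 4 C/EBP matches, 3 were at Spi1: at −13.0 kb, at +0.6 kb and at +2.3 kb. The centre of the match at −13.0 kb was 24 bp upstream of the summit. The fourth was at Spic −25.9 kb, in the sequence printed above, together with the AP-1 match. The GATA match was in the intronic Spi1 region at +12.2 kb, 42 bp from the summit. The single general ETS hit among regions was at the Nr1h2 promoter, where 5 matches lie within 100 bp of the summit, all shown in the printed sequence, with some overlapping. Within 100 bp each side, 1 region, Spi1 +40.7 kb, gained a PU.1 match, against 8.30% of all regions.

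With the shorter cores TGTGGT (RUNX) and AGGAAG (ETS), which were added after the −13.0 kb sequence had been seen, that region held 3 RUNX cores and 2 ETS cores within 100 bp of the summit. At least 3 RUNX cores were found at 0.629% of all regions and at least 2 ETS cores at 12.7%. Within 50 bp of the summit the region held 2 RUNX cores and 2 ETS cores. At least 2 were found there at 2.07% of all regions for RUNX and at 5.41% for ETS. Because the cores were chosen from this sequence, these shares do not measure how unusual the region is. One ETS core and 1 RUNX core in the region overlap, as the capitals show. Within 100 bp of the summit, however, 5 of the 30 (16.7%) held a RUNX core, against 25.8% of all regions, and 6 of the 30 an ETS core, against 43.2% of all regions. At annotated starts and away from them, the RUNX core was at 15.3% and 30.4% of all regions and the ETS core at 33.1% and 47.5%. The Spic promoter held 1 ETS core 13 bp from its summit.

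Genes that work with or under these factors were looked up in lists by role. Of 15 partner and regulator genes, 14 had a promoter region against the background of 63.5% of genes, the exception being Cebpb. Among them Runx1, which binds the Spi1 element, had 4 promoter regions, the strongest at a signal of 4.84, and Cebpa, a granulocyte factor, had 1 with 8.22. Irf8, a partner of PU.1 in composite sites, had 2 with up to 13.2, and Irf4 had 1 with 12.3. Of 15 known PU.1 targets in myeloid cells, 14 had one, all but Ctss. The receptors Csf1r, Csf2ra and Csf3r were among them, with strongest signals of 3.15, 5.99 and 6.23, and the Csf1r region was in neither replicate's own list. Most of these promoter regions were weak. The strongest one of each gene stood at a median signal percentile of 25.6 among the partners and 19.8 among the PU.1 targets. In the Spi-B and Spi-C lists described next this median was 68.5 and 57.5.

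Of 8 lymphoid genes linked to Spi-B, 5 (62.5%) had a promoter region, about the share of all genes (63.5%); Cd79a and Ms4a1, B-cell surface proteins, and Pou2af1, a B-cell coactivator, had none. Of 8 genes of iron handling and macrophages linked to Spi-C, 7 had one, and Vcam1, an adhesion molecule of red pulp macrophages, had no region within 50 kb at all. Hmox1, which degrades heme, had 12.0 and Bach1, the heme-sensing repressor of Spic, had 3 promoter regions with up to 5.85. In replicates 1 and 2 the counts with a promoter region were 14 and 11 of the partners, 11 and 8 of the PU.1 targets, 4 and 5 of the Spi-B list, and 7 and 7 of the Spi-C list, against 59.0% and 54.5% of all genes. A PU.1 motif match at some region within 50 kb was found at 6 of 15 partners, 7 of 15 PU.1 targets, 3 of 8 and 3 of 8 of the others, against 24.0% of all genes. These genes have more regions than most (medians from 8.5 to 11 per list), which gives more room for a match. Counted by region, 6.37% of the partners' regions, 7.59% of those of the PU.1 targets, 5.26% of those of the Spi-B list and 7.14% of those of the Spi-C list held the PU.1 motif, near the 5.99% of all regions. No test was made of these lists.

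All 4 genes listed here as markers of progenitors (Kit, Cd34, Flt3 and Fcgr3) had a promoter region in the conservative list, where 63.5% of all genes have one, and in both replicates' own lists. In the conservative list so had Mpo and Csf1r of the granulocyte and monocyte markers, with Elane lacking one, both erythroid markers (Klf1 and Epor) and both megakaryocyte markers (Itga2b and Pf4). Of the markers of other cells reported here, Pax5 (B cell) and Adgre1 (macrophage) had one, while Cd79a, Cd3e, Cd3g and C1qa had none. The Pax5 and Adgre1 regions were strong, at signal percentiles 92.5 and 84.4, and were in both replicates' own lists. The strongest promoter regions of Flt3, Kit, Cd34 and Fcgr3 stood lower, at 75.5, 56.8, 44.7 and 8.3. Those of Mpo and Csf1r were at 9.46 and 0.511, and that of Epor was at 86.7. Mpo and Csf1r had a promoter region in neither replicate's own list, and Klf1 had one in that of replicate 1 alone. Fcgr3, Mpo, Csf1r and Cd79a also stand in the lists above. Open chromatin at a start does not measure expression, and a share of other cells and opening in the progenitors themselves cannot be told apart in bulk libraries.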

How the data were processed

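ATAC-seq of 2 libraries was available as 13 deposited peak lists on mm10, of which 10 were used. The deposited signal per peak (scale not stated) ranked regions within a list, and the deposited −log10 p broke ties in merging. Per the deposited notes beside the files, a replicate's lists came from its filtered alignments and series lists from both; 1 list of replicated peaks is archived. Neither aligner nor peak caller nor a read shift for the transposase is given in the sources used here. Sequencing instruments are named for replicate 1 (2 models) but not for replicate 2. Without read counts in the files, depth is unknown and no test was run; intervals are exact binomial over regions.

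Overlapping peaks were merged, keeping the strongest. The conservative list was the main one, although its 65789 regions outnumber the 63566 of the series IDR-thresholded list. Regions were set against all GENCODE M21 transcript starts and the GRCm38.p6 (RefSeq) sequence; lists met by at least 1 bp. Python 3.11.15, pandas 2.3.3, NumPy 2.4.6 and SciPy 1.17.1 were used, and merging, distances and motif search were tested on simulated data. Members and gene lists were chosen with earlier results of these data known. Genes are named if they are Spi1, Spib or Spic, start near or contain one of their regions, or stand in the lists. A single one of the marker genes is not reported here.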

Additional observations from a re-analysis of the deposited data

How the results depend on the processing

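No paired analysis was possible because there is 1 group. Leaving out 1 replicate meant using the other replicate's own IDR-thresholded list, so the list changed along with the library. Of 97 values under other settings, 69 stayed within 1.5 times of a count, within the exact interval of a share or within 1 SD of the replicates for a percentile, and 28 moved. Promoter regions of Spi1 numbered 3, with 5 unmerged peaks, 0 in the upper 50% of regions by signal, and 2 in each replicate's list. Those of Spib numbered 0 and became 1 only with a promoter window of 2500 bp. Those of Spic numbered 1, with 2 unmerged peaks, 0 in the upper 50%, and 0 without either replicate. Other regions within 50 kb numbered 9 at Spi1, with 19 in the replicated list, 32 in the archived list, 3 in the upper 50% and 3 to 4 when 1 replicate was left out. At Spib they numbered 10, with 28 in the archived list and 21 unmerged peaks, and 10 without either replicate. At Spic they numbered 7, with 16 in the archived list, 3 in the upper 50% and 4 to 5 when 1 replicate was left out. The percent of the 30 regions found in both replicates was 53.3, against 50.6 of all conservative regions. It was 93.3 in the pseudoreplicated lists and 93.3 in the ranked lists, against 94.1 of all conservative regions in the ranked lists. The IDR-thresholded list of replicate 2 held 56.7 percent and that of replicate 1 held 70.0 percent, whether or not the other list held the region. No share of all regions is given for the pseudoreplicated lists or for 1 replicate's list. The signal percentile of the strongest promoter region was 48.5 at Spi1, with 70.2 in the replicated list, 83.7 in the archived list and 21 to 39.6 when 1 replicate was left out; at Spic it was 41.1, with 65.7 and 78.1 in those 2 lists. The percent of 46 related genes with a promoter region was 87.0, against 63.5 of all protein-coding genes. It was 67.4 without replicate 1, against 54.5 of all genes, and 78.3 without replicate 2, against 59.0. In the archived list it was 97.8 and in the upper 50% it was 28.3, and no share of all genes was computed for these 2. A match to any of the 9 motifs was held by 33.3 percent of the 30 regions, against 38.8 percent of all regions. With the shorter RUNX and ETS cores, chosen after seeing the data, it was 46.7 percent of the 30. No share of all regions was computed with the cores added. Within 50 bp of the summit, the ETS core alone was at 13.3 percent of the 30 and 29.2 percent of all regions. The RUNX core alone was at 16.7 and 17.3 percent. The longer lists hold more weak regions by construction; the causes of the other shifts were not tested. The upper 50% gave no percentile, since no promoter region of Spi1 or Spic was in it.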

Other observations

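Other lists held further regions near the 3 genes. The IDR-thresholded list of the series, although shorter, added 1 at Spi1, 1 at Spib and 2 at Spic. The replicated list added 10 at Spi1, 4 at Spib and 3 at Spic, and none of these was a promoter region. At Spi1 they included weak regions at −17.43, −9.59 and −8.43 kb, with signals of 3.09, 3.41 and 3.09, each also in the ranked lists of both replicates. Another at −11.38 kb, 503 bp from the −12 kb position of the myeloid enhancer, had 2.61 and was in neither ranked list. At Spic a region at +13.11 kb had a signal of 7.42, close to the 7.61 of the Spic promoter region, and was in both ranked lists, but not in the conservative list. It also passed the IDR threshold in replicate 1's own list, as the region nearest to an Spic start, 13011 bp away. In that of replicate 2 the nearest region was 40438 bp away. The archived list gave the region at +13.11 kb a signal of 11.3, at percentile 90.8 of that list. The archived list added 22, 16 and 8 regions at Spi1, Spib and Spic, among them 1 that covered the Spi1 start at 91082390 with a signal of 2.22.

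Of the 30 regions, 4 were in the conservative list and not in the IDR-thresholded list of the series: Spi1 +12.2, +19.1 and +40.7 kb and Spic −44.3 kb. All 30 were in the replicated and archived lists.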
